A study of Mus musculus with 18 samples.

Results

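The transcripts described here had a lower signal in the mouse testis through P7 than from P14 on. Their P14, P21 and adult medians lay within a bound that the choice itself set, and the adult median mostly exceeded that of P14. The transcripts are 200 probes, chosen from 34232 probes whose identifier starts with ASMM9PARTA, out of 37820 probes measured in all. The choice used the measured values themselves. For each probe the median of the 3 arrays of a stage was taken, the medians at P14, P21 and adult had to lie within 1.5 of each other on the log2 scale, and the adult median had to reach 9. The score was the lowest of these 3 late medians minus the highest of the medians at E12.5, E15.5 and P7. A score of at least 1, which is a 2-fold difference, was met by 489 probes, and the 200 with the highest scores are the members. Their levels across stages and their difference between P7 and P14 are therefore given as descriptions. Where limma's counts of calls are printed for a contrast that the rule used, nothing is read from them.

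Whole mouse testis was collected at 2 fetal ages (E12.5, E15.5), 3 juvenile ages (P7, P14, P21) and adulthood, and each of the 6 stages was measured on 3 arrays, 18 in total. The labels give no strain, genotype or treatment for any stage, no age for the adult, and do not say whether an array held 1 animal or a pool. RNA free of ribosomal RNA was copied by random priming into dye-labelled cRNA and hybridised to 1-colour arrays for lncRNAs and mRNAs. The replicates are numbered 1 to 3, and nothing says that they came from separate animals, so a p-value here reflects array-to-array spread that may be partly or wholly technical.

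As background, the first wave of spermatogenesis runs nearly in step through the juvenile mouse testis. At P7 the most advanced germ cells are spermatogonia. By P14 many have entered meiotic prophase, in which homologous chromosomes pair and recombine and many genes used only in germ cells are transcribed. Round spermatids appear at about P21, and in the adult all stages are present together with Sertoli, Leydig and other somatic cells. In whole testis, fewer cells of a type and less RNA per cell cannot be told apart.

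None of the members' identifiers matched the gene tables used here (0 of 200), so no gene name, function or sequence is given for them. Markers of germ cells and somatic cells could not be looked up for the same reason, and the cell type that carries each signal was not tested. Whether a member is a lncRNA or an mRNA is likewise not stated by its identifier. The identifier numbers of the members ran from 46 to 51730, and only 1 pair had consecutive numbers.

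Several arrays differed from the others of their stage, and 1 of them bears directly on the members. P7 replicate 3 had a member median of 9.96, against 9.20 in P7 replicate 1 and 9.28 in P7 replicate 2, while the medians of all probes in these arrays were 7.99 and 7.98 in replicates 1 and 2 and about 8.0 in replicate 3. E12.5 replicate 2 was the highest of its stage for 159 of 200 members, compared with 63.2% of all probes. E12.5 replicates 1 and 3 were nearly alike, with a median difference of 0.07 over all probes, against 0.61 and 0.64 between them and replicate 2. The E12.5 medians were thus mostly set by this pair, which bears on every comparison with E12.5. Why the pair was so alike was not tested. P21 replicate 1 was the lowest of its stage for 145 of 200 members, compared with 55.7% of all probes. Adult replicate 2 was the highest of its stage for 114 of 200 members (28.5% of all probes), and E15.5 replicate 1 the lowest for 130 (40.8% of all probes). Counts of arrays that do not overlap use all arrays, and counts of calls without 1 array are given where they moved most.

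Many members already had a moderate signal before P14. Below the lower quartile of all probes lay 44 of 200 at E12.5, 28 at E15.5 and 16 at P7. The median over members of the stage medians was 7.93 (E12.5), 8.58 (E15.5) and 9.26 (P7) early, and 11.55 (P14), 11.93 (P21) and 12.08 (adult) late. The median of all probes stayed between 7.79 and 7.98. The members thus stood near the typical probe in the fetal testis and well above it from P14 onwards.

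**Figure D1:**
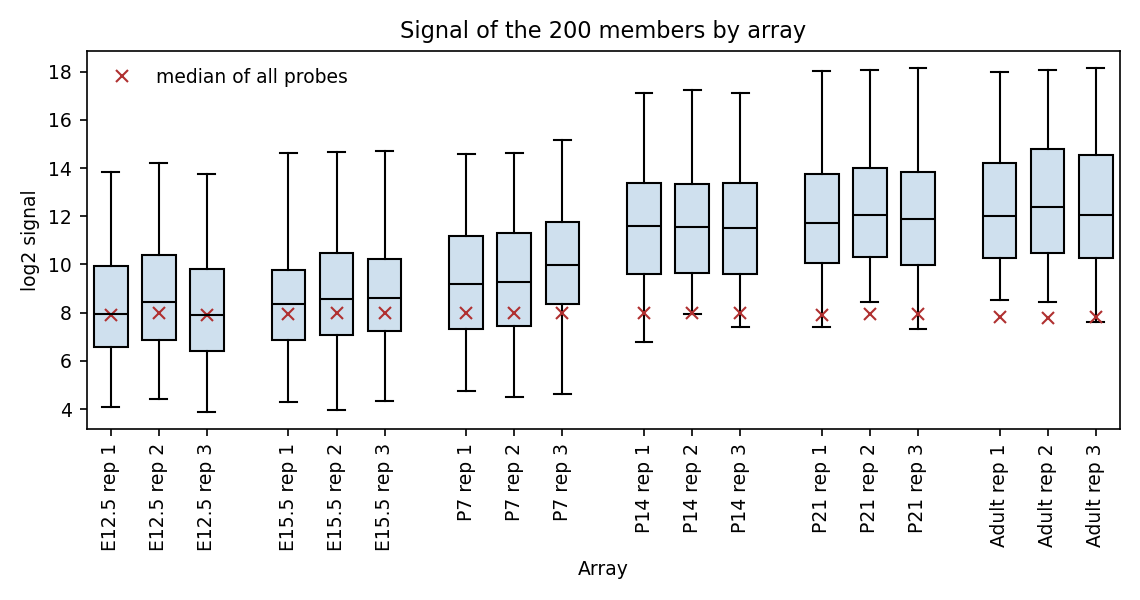
Log2 signal of the 200 members in each of the 18 arrays, in order of stage. Boxes span the quartiles with the median as a line, whiskers reach the lowest and highest member, and crosses mark the median of all 37820 probes; member medians are at most 9.96 before P14 and at least 11.49 from P14 on.

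A description of these transcripts as switched on at P14 was not shown to fit all of them, since their early levels differed. At P7 128 of 200 had a median above that of all probes, and 96 were above it at all 3 stages before P14. Another 63 were below it at all 3 stages, and 41 were mixed. Only 10 lay below the lower quartile of all probes at E12.5, E15.5 and P7 alike. The same joint counts over all probes were not computed. The bound on the adult median also bore on these early levels, so the counts are given as a description. No limit of detection was available, so a low signal cannot be read as absence. The members also spanned a wide range of brightness, from 7.95 to 17.14 at P14.

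The difference between P14 and P7 was far smaller for most members than for the few at the top of the list. The P14 median exceeded the P7 median by 1.87 at the middle member, which is 3.65-fold, by 1.52 at the lower and 2.37 at the upper quartile, and by 8.65 at most. The score was at least 2 for 62 members, at least 3 for 11 and at least 4 for 5. The last member inside the list had a score of 1.369 and the first outside 1.368, so the end of the list marks no gap in the values.

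The order of the stage medians differed among members, as a description of medians with no test. The highest of the early medians was that of P7 for 144 members, of E15.5 for 43 and of E12.5 for 13. P14 was the lowest of the late stages for 160 members, and the adult the highest for 145. The medians of 129 members were in ascending order from P14 through P21 to adult, and those of 52 in ascending order across all 6 stages. The step from P7 to P14 was the largest of the 5 steps between neighbouring stages for 141 members. For another 52 it was the step from E15.5 to P7, and for 7 the step from E12.5 to E15.5.

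All 9 arrays of P14, P21 and adult lay above all 9 arrays of E12.5, E15.5 and P7 for 163 members, compared with 5.71% of all probes. Between P7 and P14 alone, limma's test called 180 members higher and 0 lower at P14 at an adjusted p below 0.05 and a change of at least 2-fold, where 6.21% of all probes were called higher and 6.64% lower. The rule used this contrast, so nothing is read from either count. The choice also all but fixed that no member had a lower mean at P14 than at P7 (0 at an unadjusted p below 0.05 in limma's test).

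**Figure D2:**
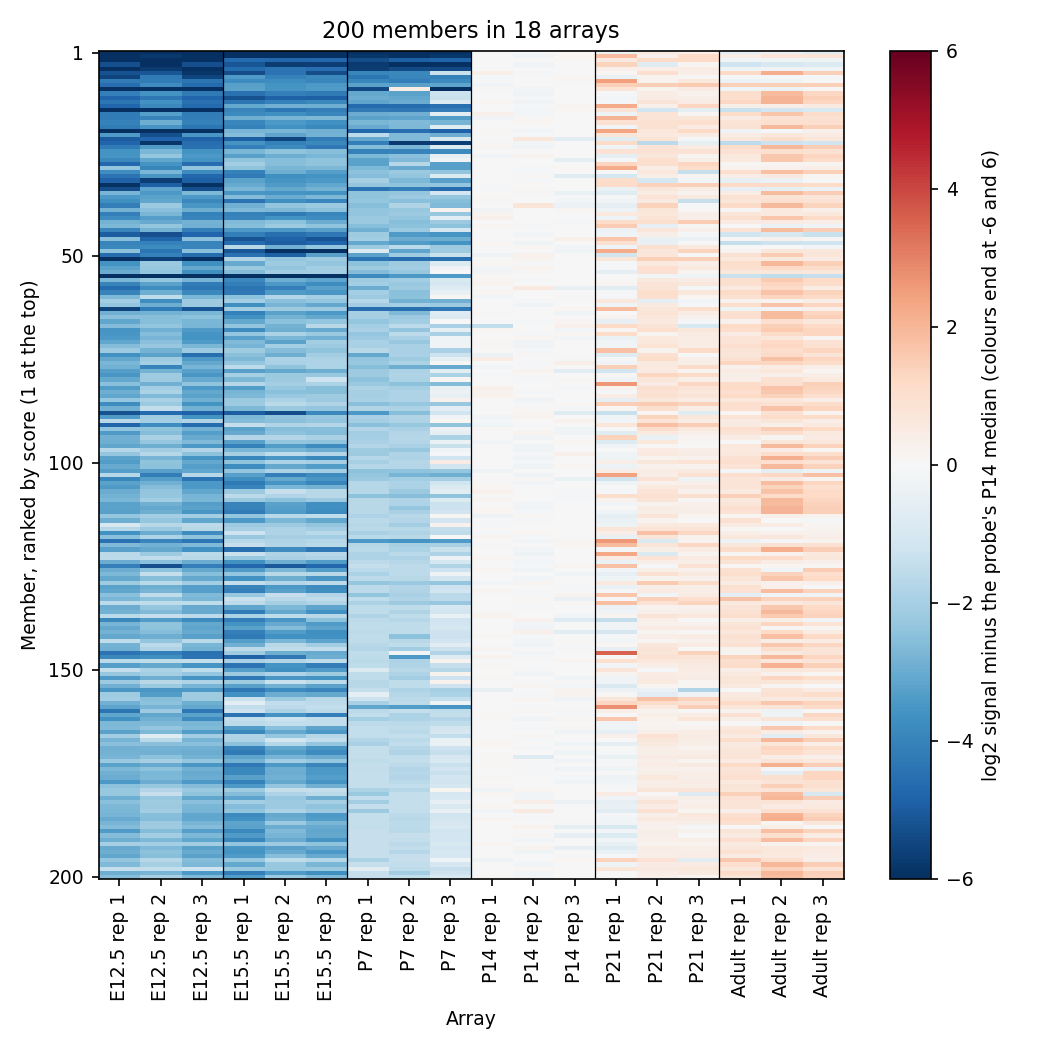
Log2 signal of the 200 members (one line each, ranked by score from the top) in the 18 arrays, as the difference from the probe's own P14 median; blue is below it and red above it. The P14 arrays are nearly white throughout, the earlier arrays blue, and P7 replicate 3 is close to white for some of the members.

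The member with the highest score came nearest to an off-to-on pattern. ASMM9PARTA006223 had a log2 signal of 6.26, 6.22 and 6.29 in the E12.5 arrays, 6.98, 6.11 and 6.40 in the E15.5 arrays and 6.80, 6.63 and 6.77 in the P7 arrays. It then had 15.32, 15.44 and 15.42 in the P14 arrays, 15.04, 15.96 and 15.77 in the P21 arrays, and 14.92, 14.96 and 14.69 in the adult arrays. All late arrays stood far above all early arrays, and the spread within each stage was under 0.5 (SD, n = 3). The P14 mean exceeded the P7 mean by 8.66 (SE 0.24), and this was also the largest such difference among the members. No fold is given, since its early signal was not shown to be above background. Before P14 it passed no comparison, and the largest change, 0.48 at P7 relative to E12.5, had an adjusted p of 0.18 (SE 0.24, limma).

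The second highest score, 5.86, belonged to ASMM9PARTA043281. Its signal was 7.43, 7.98 and 7.35 in the E12.5 arrays, 7.20, 7.44 and 7.23 in those of E15.5, 7.91, 7.55 and 7.90 in those of P7 and 13.76, 13.56 and 13.87 in those of P14. The P21 arrays gave 15.60, 14.08 and 14.89, and those of the adult 14.14, 14.52 and 14.53. The 9 early arrays stayed within a narrow band and did not overlap the late arrays, while the P21 arrays were spread more widely (SD 0.76) than those of P14 (SD 0.16). The mean difference between P14 and P7 was 5.94 (SE 0.30).

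The member with the highest adult median was bright at every stage. ASMM9PARTA030998 had 13.06, 14.20 and 13.07 in the E12.5 arrays, 13.20, 13.70 and 13.51 in the E15.5 arrays, 14.38, 14.47 and 14.37 in the P7 arrays, and 17.11, 17.26 and 17.14 at P14. At P21 it had 18.04, 18.06 and 18.16, and in the adult 17.97, 18.08 and 18.16. Its late values lay near the top of the scale of these arrays, and saturation flags were not used here, so whether saturation limited them was not tested.

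**Figure D3:**
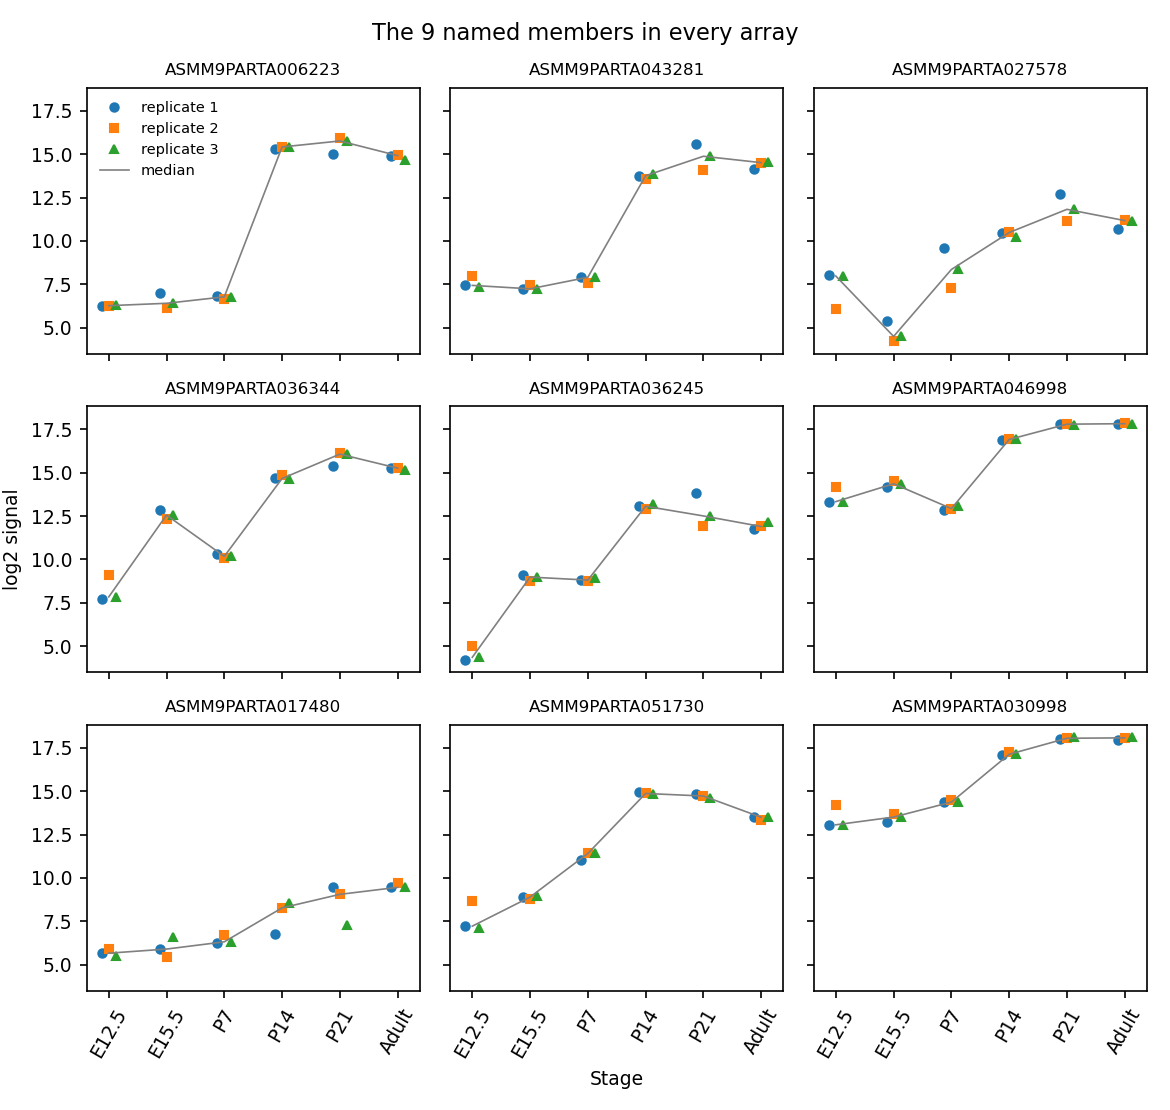
Log2 signal of the 9 named members at each stage, with 1 marker per replicate and a line through the stage medians. ASMM9PARTA006223 stands between 6.11 and 6.98 before P14 and at or above 14.69 from P14 on, while ASMM9PARTA046998 and ASMM9PARTA030998 start above 12.8.

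Many members rose between E15.5 and P7, before the step that chose them. The rule used E12.5, E15.5 and P7 only through the highest of their medians, and it fixed neither their order nor the differences among them. It did hold all 3 medians below the late ones, and the same arrays entered the choice. Tests among these 3 stages are thus not independent of it, and their counts and adjusted p-values are given as descriptions. In limma's test 99 members rose at P7 relative to E15.5 and 8 fell, while 7.50% of all probes rose and 8.23% fell. The other 93 members did not pass. The members' median change was 1.14, that of all probes 0.01. Without P7 replicate 3, 80 members rose and 6 fell, against 99 and 8 with it. All 3 P7 arrays lay above all 3 E15.5 arrays for 122 members (22.9% of all probes) and below them for 20 (26.4% of all probes).

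The largest of these rises followed a dip at E15.5. ASMM9PARTA027578 had 8.01, 6.10 and 7.97 in the E12.5 arrays, 5.37, 4.20 and 4.49 in the E15.5 arrays and 9.62, 7.31 and 8.35 in the P7 arrays. The E15.5 arrays were below all others, and the E12.5 and P7 arrays overlapped. The signal rose by 3.74 at P7 relative to E15.5 (SE 0.58, adjusted p = 0.00027, limma), after a fall of 2.67 at E15.5 relative to E12.5 (SE 0.58, adjusted p = 0.0031), which was also the largest fall in that interval. It had 10.48, 10.52 and 10.24 in the P14 arrays, 12.73, 11.17 and 11.82 in the P21 arrays and 10.67, 11.18 and 11.17 in the adult arrays.

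The opposite shape was a fetal peak at E15.5 followed by a fall at P7. ASMM9PARTA036344 had 7.70, 9.08 and 7.84 in the E12.5 arrays, 12.87, 12.33 and 12.56 in the E15.5 arrays and 10.29, 10.11 and 10.17 in the P7 arrays. Its arrays did not overlap between these stages. It fell by 2.39 at P7 relative to E15.5 (SE 0.30, adjusted p = 4.4e-05), the largest such fall among the members. At P14 it stood at 14.67, 14.87 and 14.64, at P21 at 15.40, 16.12 and 16.08, and in the adult at 15.30, 15.27 and 15.16.

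Between E12.5 and E15.5 most members, like most of all probes, did not pass the test. At E15.5 33 members rose relative to E12.5 and 4 fell, compared with 10.6% and 9.46% of all probes, and 163 did not pass. The median change was 0.14 for members and 0.12 for all probes. Without E12.5 replicate 2, 40 rose and 6 fell. All E15.5 arrays lay above all E12.5 arrays for 46 members (21.9% of all probes) and below for 33 (16.5% of all probes). Of the 33 that rose, 7 fell again at P7, 25 did not pass at P7 and 1 rose further. The same split over all probes was not computed, and both comparisons share the E15.5 arrays, so nothing is read from it.

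The largest fetal rise was followed by no called change at P7. ASMM9PARTA036245 had 4.17, 4.99 and 4.35 in the E12.5 arrays, 9.11, 8.73 and 8.98 in the E15.5 arrays and 8.81, 8.78 and 8.94 in the P7 arrays. The E12.5 arrays were far below the others, and the E15.5 and P7 arrays overlapped. It rose by 4.44 at E15.5 relative to E12.5 (SE 0.36, adjusted p = 3.4e-07), and its change from E15.5 to P7 was -0.10 (adjusted p = 0.89). Its signal was 13.07, 12.92 and 13.19 at P14, 13.84, 11.94 and 12.51 at P21 and 11.76, 11.90 and 12.17 in the adult.

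Across the whole span from E12.5 to P7, 121 members rose and 0 fell in limma's test, compared with 9.58% and 6.40% of all probes. At an unadjusted p below 0.05, 2 members were lower at P7, neither by 2-fold. All P7 arrays lay below all E12.5 arrays for 3 members (16.5% of all probes), and above them for 142 (20.1% of all probes). Without P7 replicate 3 the rises numbered 92, and without E12.5 replicate 2 they numbered 139. In all, 150 members were called in at least 1 of the 3 comparisons before P14, compared with 31.7% of all probes, and 50 in none. The largest decline among the 3 was that of ASMM9PARTA046998, with 12.86, 12.93 and 13.11 at P7 against 13.34, 14.16 and 13.33 at E12.5. Its change of -0.64 (SE 0.20, adjusted p = 0.035) was under 2-fold and was not called, and at E15.5 it had 14.20, 14.52 and 14.37. From P14 on it was among the brightest members, at 16.91, 16.97 and 16.92 in the P14 arrays, 17.81, 17.81 and 17.78 in the P21 arrays and 17.79, 17.86 and 17.83 in the adult arrays.

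**Figure D4:**
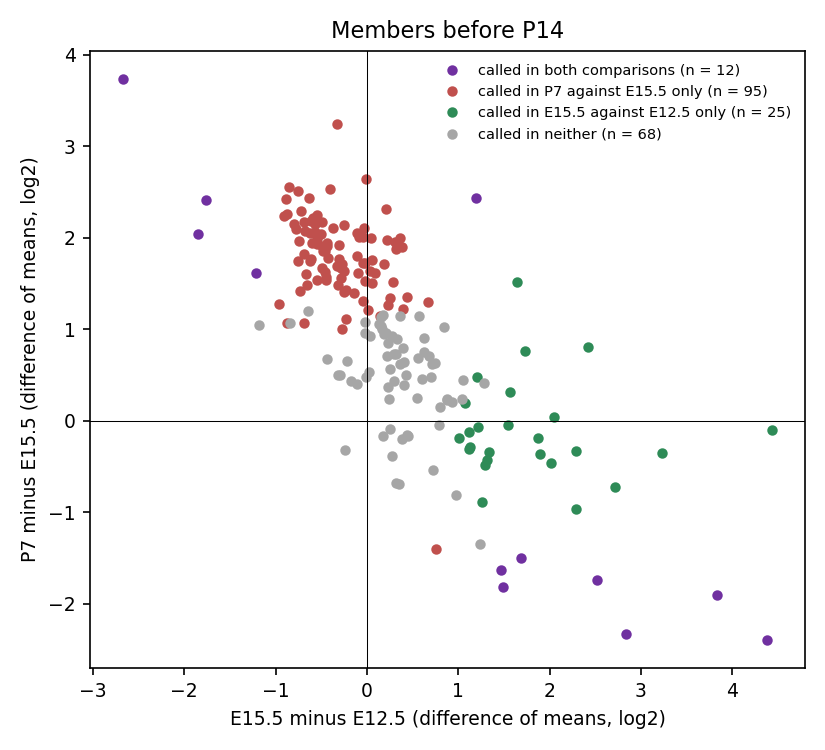
Each member's difference between E15.5 and E12.5 (horizontal) and between P7 and E15.5 (vertical), computed between stage means of log2 signal, coloured by the comparisons in which it was called. The 95 members called only at P7 against E15.5 lie mostly at the top near zero on the horizontal axis, and 12 members were called in both; the axes share the E15.5 arrays, so a slope between them is built in.

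P7 replicate 3 divided the members. It was the highest P7 array for 147 of 200, compared with 41.2% of all probes, although the rule, which took the median of 3 arrays, gave no preference to any array number. In 68 members (34.0%) it exceeded the mean of the other P7 arrays by at least 1, and in 1 member it was as far below. That member, ASMM9PARTA034812, is named after its values were seen, and had 6.68, 12.51 and 5.87 in P7 replicates 1, 2 and 3, so its P7 replicate 2 stood at the level of its P14 arrays (12.17, 11.93 and 12.08). Of all probes 3.06% were that far above and 3.90% that far below. Leaving the members out, the share among ASMM9PARTA probes was 2.77% above.

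As a set, the 68 members stood near their P14 level in this array, which a split made on the same array favours. Their median was 9.34 in P7 replicate 3, against 7.36 and 7.57 in the other P7 arrays, 9.45, 9.59 and 9.53 at P14, and 10.35, 10.64 and 10.42 in the adult. Single members of the 68 lay further below, such as ASMM9PARTA047125, with 12.66 in that array against 14.01, 13.77 and 13.96 at P14. Others lay above all their P14 arrays, such as ASMM9PARTA018713, with 8.92 against 8.47, 8.38 and 8.43. Both examples were picked after the values were seen. The other 132 members had medians of 10.49, 10.55 and 10.78 at P7 and between 12.40 and 12.46 at P14. The P7 medians of this set lay close together and below those of P14, although single members such as ASMM9PARTA034812 departed from this. The 68 were also the dimmer set, with medians from 6.72 to 7.31 in the fetal arrays, against 9.06 to 9.61 for the others.

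The 68 members also moved together in the arrays of the other stages. The split did not use these arrays, though the choice of the 200 members did. Deviations from the stage mean, over the 15 arrays of the stages other than P7, had a mean pairwise correlation of 0.57 among the 68, 0.09 among the other 132 members, 0.19 among all 200 and 0.02 among all ASMM9PARTA probes. The same mean was 0.44 among the 200 highest scores with the formula moved to P21, a list low through P14 and high from P21 on. These values describe variation between arrays of 1 stage that probes share, and probes are not independent replicates. The 68 were marked off after the values were seen, and what else they share was not tested.

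With P7 replicate 3 alone as the P7 level, 125 of the 200 members would have a score of at least 1 and 15 a score of 0 or below. With P7 replicate 1 alone 195 would reach 1, and with P7 replicate 2 alone 198. The members had been chosen on the P7 median, and P7 replicate 3 was the highest P7 array for 147 of them, so the counts for replicates 1 and 2 were largely fixed by the choice.

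**Figure D5:**
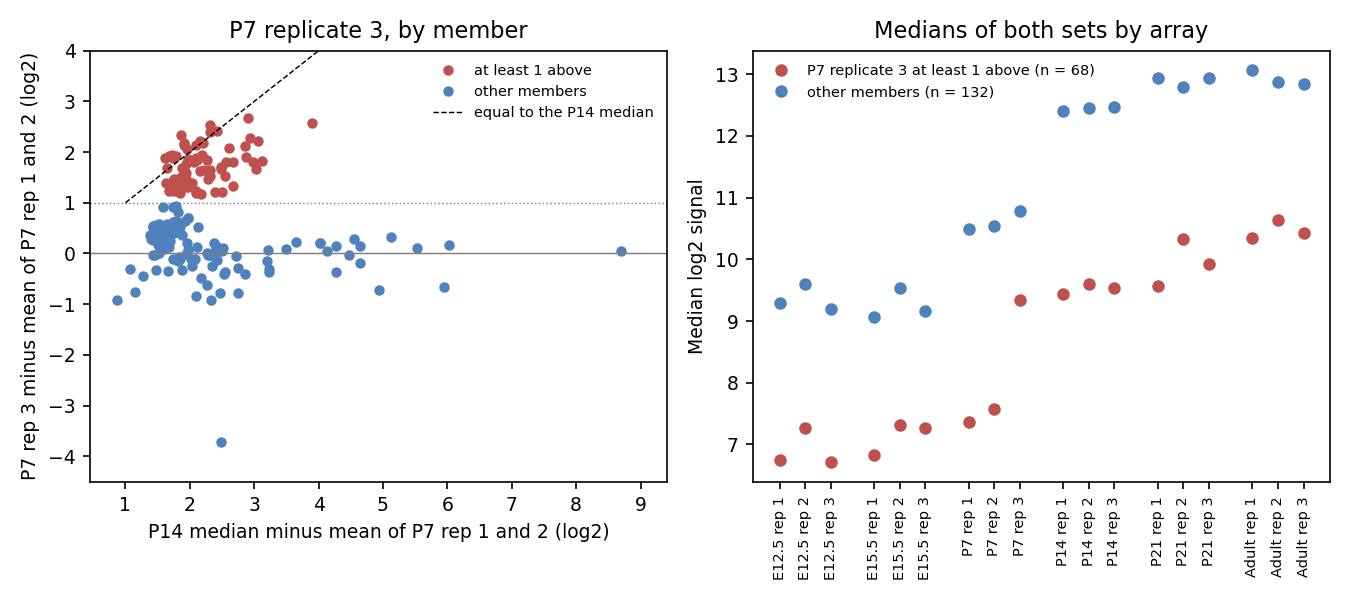
Left, for each member, P7 replicate 3 minus the mean of P7 replicates 1 and 2 (vertical) against the P14 median minus the same mean (horizontal, log2); points on the dashed line have reached their P14 level in P7 replicate 3. Right, median log2 signal by array of the 68 members at least 1 above in that array and of the other 132, with 9.34 in P7 replicate 3 for the 68 against 7.36 and 7.57 in the other P7 arrays.

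This pattern was compared with lists built by the same formula elsewhere in time. Of the 200 highest scores with the formula moved to P21, 0.5% were at least 1 above in P7 replicate 3 and 1.5% as far below. Of the 200 highest scores of the mirrored formula (high through P7, then low), 0% were that far above or below, with a median of 0.02. The differences between these lists were not tested.

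The step was also read in arrays that had not chosen the probes, and its size differed among them. The rule was applied to the arrays of 2 replicate numbers, taking their mean per stage, and the 200 highest scores were read in the arrays of the remaining number. In the arrays numbered 1 the median score was 1.26, with 192 of 200 above 0 and 141 at least 1. In the arrays numbered 2 it was 1.72, with 199 above 0 and 188 at least 1. In the arrays numbered 3, which include P7 replicate 3, it was 0.90, with 177 above 0 and 90 at least 1, where the arrays that chose them had given 1.86. The range of P14, P21 and adult stayed within 1.5 in the arrays not used for 134, 101 and 149 of the 200, for numbers 1, 2 and 3 in that order. The 3 choices share arrays and shared 104, 123 and 130 probes with the 200 members, so they are not independent of each other and carry no test. Nor were the arrays left out shown to be independent of those that chose, since replicates may be technical. E12.5 replicates 1 and 3, for example, differed by a median of only 0.07 over all probes.

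Most members kept their P14 level or exceeded it later, within the bound of 1.5 that the rule set. At P21, 25 members were called higher than at P14 and 0 lower (1 at an unadjusted p below 0.05), compared with 9.20% and 14.3% of all probes, and 17 were called without P21 replicate 1. Between adult and P21, 47 members were called, 38 higher and 9 lower in the adult, compared with 30.9% of all probes in either direction. Without Adult replicate 2, 21 members were called. The adult median exceeded the P14 median for 176 members, by 0.80 at the middle member, while the median difference of all probes was -0.33. The rule bounded these differences, so nothing is read from the counts. P14 was the stage with the closest replicates, with a median SD of 0.12 over members, against 0.46 at P21, 0.26 in the adult and 0.34 at P7. The corresponding values over all probes were 0.12, 0.49, 0.28 and 0.20. The members' value was thus above that of all probes at P7 and near it at the late stages. It was also above at E15.5 (0.29 against 0.22) and near it at E12.5 (0.36 against 0.37).

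The rule bounded the late medians, so the choice itself limited the extremes of the late drift, and nothing is read from their size. By the difference between means, ASMM9PARTA017480 had the largest adult excess over P14, at 1.67 (SE 0.50). Its arrays gave 9.46, 9.69 and 9.45 in the adult against 6.78, 8.27 and 8.56 at P14. This ranking rested on the low P14 replicate 1, without which the difference between means was 1.12. Between stage medians its excess was 1.19, below the members' upper quartile of 1.24. The E12.5 arrays gave 5.66, 5.90 and 5.48, those of E15.5 gave 5.89, 5.44 and 6.60, those of P7 gave 6.23, 6.68 and 6.31, and those of P21 gave 9.48, 9.05 and 7.30. P14 replicate 1 lay close to its highest P7 array, so the P14 step of this dim member depended on the other P14 arrays. ASMM9PARTA051730 had the largest shortfall, with 13.53, 13.35 and 13.50 in the adult against 14.94, 14.87 and 14.83 at P14 (difference -1.42, SE 0.30).

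ASMM9PARTA051730 was also the 1 member called higher in both intervals before P7. The E12.5 arrays gave 7.22, 8.67 and 7.12, those of E15.5 gave 8.89, 8.77 and 8.93, those of P7 gave 11.04, 11.41 and 11.46, and those of P21 gave 14.84, 14.73 and 14.62. It rose by 1.20 at E15.5 relative to E12.5 (SE 0.30, adjusted p = 0.0082) and by 2.44 at P7 relative to E15.5 (SE 0.30, adjusted p = 3.7e-05, limma). Its level at P7 was thus already well above that in the fetal arrays, and the P14 mean stood 3.58 higher still.

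Applied at other ages, the same formula found fewer probes before P14 and more after it. Of 34232 ASMM9PARTA probes, 153 passed every threshold with the step placed just before E15.5, 106 before P7, 489 (1.43%) before P14, 1286 (3.76%) before P21 and 2129 (6.22%) before the adult stage. The median score was 1.28 at P14 and 2.48 at P21, and 62 and 809 probes reached a score of 2. A later step leaves fewer stages to lie within the bound of 1.5, so these counts are not like for like.

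Probes with lincRNA in the identifier, which the rule left out, were spread differently over these ages. At P14 66 of 2480 such probes (2.66%) passed every threshold, and at P21 13 (0.52%). Among sequence accessions the shares were 2.24% of 581 at P14 and 1.38% at P21, and among probes named CUST 1.33% of 527 at P14 and 4.17% at P21. With the step before the adult stage the shares were 4.23% for lincRNA probes, 4.82% for accessions and 14.4% for CUST probes, so every family had its highest share there. The difference between families was not tested.

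The members' profiles resembled each other, having been chosen for one shape. The median correlation between pairs of members over the 18 arrays was 0.91, with a range from 0.53 to 1.00, and 1588 of 19900 pairs exceeded 0.98. These correlations share the step that chose the probes and are given as a description. The partners were unevenly spread, since 69 members had at least 20 partners above 0.98 and 50 members had none.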

How the data were processed

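The authors deposited 1 value per probe and array for 37820 probes, taken to be log2 signals from their range. Of their log base, normalization and probe filter, none is given in the sources used here. The submitters' processing notes name Agilent Feature Extraction 11.0.1.1 as the image software. Deposited values were used unaltered, precision is limited by the number of arrays, and neither scanner files nor detection flags entered.

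Stage medians, the rule and the member lists were computed with pandas 2.3.3. All probes and 18 arrays were fitted with 1 mean for each stage in limma 3.58.1 in R 4.3.3 (12 residual degrees of freedom, prior 3.20), after a test on simulated data. Adjusted p-values are Benjamini-Hochberg values over all probes within a comparison. Calls needed an adjusted p below 0.05 and a change of at least 1. No filter on low values was used; all 200 members also passed the alternative filter on the dimmest 25%.

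Named probes were the 2 highest scores, the largest rise and fall without overlap in P7 against E15.5, E15.5 against E12.5, P7 against E12.5 and Adult against P14, the largest P14 difference and the highest adult median. Gene lists and cell type markers were not tested, for want of gene names. The members, lists and tests were chosen with earlier results of these data known. Alternatives were rescaling, other rule bounds, other priors and thresholds, a filter on dim probes, a replicate block, and arrays left out or averaged.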

Additional observations from a re-analysis of the deposited data

How the results depend on the processing

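Of 476 recomputed values, 468 changed neither direction nor call, or, for counts and untested values, moved by less than 1.5 times or less than the replicate spread. Among the exceptions, a range bound of 1.0 in place of 1.5 left 249 probes past every threshold and 92 of the 200 members, and a bound of 2.0 left 127 of the 200, since other probes then scored higher. At an adjusted p below 0.01, 16 members were called at P21 against P14. With only the 6 arrays compared, 15 were called there and 27 at Adult against P21. With no minimum change, the decline of ASMM9PARTA046998 at P7 against E12.5 (-0.64) passed.

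Leaving out 1 array at a time gave 368 to 556 probes past every threshold, the extremes without P7 replicate 2 and P7 replicate 3, and kept 153 to 198 of the 200 members. Members called numbered 30 to 46 at E15.5 against E12.5, 86 to 111 at P7 against E15.5, 89 to 139 at P7 against E12.5, 142 to 191 at P14 against P7, 17 to 28 at P21 against P14 (lowest without P21 replicate 1) and 21 to 65 at Adult against P21, where the lowest was without Adult replicate 2. Without both E12.5 replicate 2 and P21 replicate 1, 178 of the 200 members were kept, and 186 after quantile normalization again.

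With the replicate number as a block, 38, 109, 125, 185, 26 and 49 members were called in these 6 comparisons in the order given, and no call of a named probe changed. The labels tie no numbers across stages. Deviations from stage means correlated from -0.37 to 0.50 between same-numbered arrays (median 0.06) and from -0.54 to 0.53 between arrays of other numbers (median -0.03), so not every same-numbered pair correlated above 0.1. Of 18 arrays, 9 were closest to 1 with their own number, which 5 of the 15 candidates carried.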
